A study of Mus musculus with 8 samples.

Results

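The interferon-stimulated genes described here are 46 genes named from knowledge of the interferon response and taken from the table by their platform symbol, with the brightest probe set standing for each gene. Of the 46, 44 had a named probe set, each exactly 1, among 19505 named genes measured on every array. Gbp5 and Ifi44 had none and were not analysed here as transcripts. All arrays came from lung endothelial cells (EC) of C57BL/6N mice aged 8 weeks that carried subcutaneous Lewis lung carcinoma (LLC, a mouse lung cancer line). AB-Tie1-39, an antibody against the endothelial receptor Tie1, was given into the peritoneum of 4 mice 2 times per week at 40 mg/kg, and control IgG was given to 4 others. Mice of both treatments bore the tumor, so no array shows lung EC of a tumor-free animal. On day 14 the lung EC were sorted as CD31+ cells lacking CD45, LYVE1, PDPN, Ter119 and DAPI staining, and each biological replicate was hybridized to 1 Clariom S mouse array. The labels' antibody field of 3 AB-Tie1-39 samples names other targets, and part of their protocol text speaks of liver. All titles give anti-TIE1 or IgG. Lung capillary markers had mean log2 intensities of 11.08 to 11.21 in AB-Tie1-39-treated mice and 11.08 to 11.14 in IgG-treated mice, and markers of the liver sinusoid 7.43 to 7.53 against 7.53 to 7.65.

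Interferons are cytokines of the antiviral response. Type I interferon signals through Ifnar1 and Ifnar2 to a complex that holds Stat2 and Irf9 and binds the interferon-stimulated response element (ISRE). Interferon gamma signals through Ifngr1 and Ifngr2, and many of its target genes carry the gamma-activated site (GAS). Endothelium carries both receptor pairs, and many of the induced proteins detect viral RNA, degrade it, block its translation or attack the vacuoles of intracellular pathogens.

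The promoters that such factors read differ between the families, so stretches of promoter are shown for members that the text returns to. They come from RefSeq (build GRCm38.p6), in a table that covers 250 bases before and 50 after each annotated start and held 35 of the 46 members. Each line gives 20 bases either side of the ISRE core nearest before the start, shortened where the start comes sooner, read 5′ to 3′ on the strand of the gene. Capitals mark every whole core in the stretch. The ISRE core was searched as GAAANNGAAA on both strands, so that it reads TTTCNNTTTC where it lies on the opposite strand. The GAS core was searched as TTCNNNGAA, which reads the same on both strands.
Isg15 (chr4:156200855-156200904, minus strand): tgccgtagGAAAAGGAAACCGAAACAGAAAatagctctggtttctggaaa
Ifit1 (chr19:34640784-34640833, plus strand): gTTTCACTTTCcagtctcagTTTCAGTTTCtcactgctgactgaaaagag
Ifit3 (chr19:34583387-34583436, plus strand): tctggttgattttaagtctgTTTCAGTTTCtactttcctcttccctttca
Stat2 (chr10:128270256-128270305, plus strand): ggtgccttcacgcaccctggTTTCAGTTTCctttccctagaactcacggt
Bst2 (chr8:71537567-71537616, minus strand): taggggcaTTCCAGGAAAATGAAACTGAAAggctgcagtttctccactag
Gbp3 (chr3:142559985-142560034, plus strand): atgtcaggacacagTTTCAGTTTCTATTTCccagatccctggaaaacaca
Igtp (chr11:58199502-58199551, plus strand): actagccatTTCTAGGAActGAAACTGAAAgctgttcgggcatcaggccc
Irgm2 (chr11:58214893-58214942, plus strand): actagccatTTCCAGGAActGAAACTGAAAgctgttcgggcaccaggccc
Irf1, around its GAS core (chr11:53769904-53769952, plus strand): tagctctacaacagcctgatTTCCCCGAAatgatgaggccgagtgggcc
In Isg15, 3 ISRE cores overlap in the run of capitals, and in Gbp3 and Bst2 there are 2. In Bst2 the capitals also take in a GAS core that overlaps the ISRE core farther from the start. In Igtp and Irgm2, which are neighbours on chromosome 11, a GAS core stands before the ISRE core as a separate run, and the stretches are identical at 48 of 50 bases.

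An ISRE core was found in the promoters of 20 of the 35 members in the table (57.1%), against 1079 of all 27025 genes in it (3.99%). A GAS core was found in 14 members (40%), against 9.55% of all genes. Both cores were found in 8 members (22.9%, against 0.614% of all genes) and neither in 9 (25.7%, against 87.1%). The search window counts bases after the start too, and 16 members had an ISRE core and 11 a GAS core wholly before it. All 4 guanylate-binding protein genes in the table (Gbp2, Gbp3, Gbp5 and Gbp7) and all 3 immunity-related GTPase genes in it (Igtp, Irgm1 and Irgm2) held an ISRE core, while of the 4 transcription factor genes Stat2 alone did. A match is a description of letters in a window, and these cores are short enough to occur without any factor bound there.

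**Figure D1:**
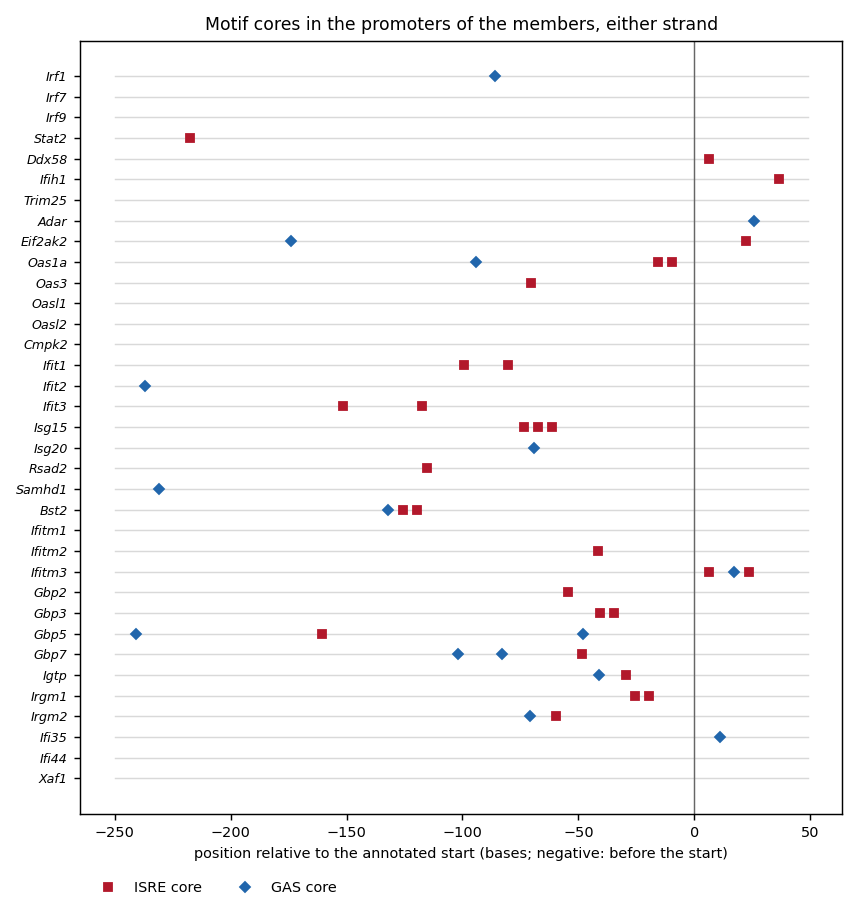
Positions of the ISRE core (squares) and the GAS core (diamonds) in the promoters of 35 members, in bases from the annotated start on the strand of the gene. Of the 35, 20 hold an ISRE core and 14 a GAS core.

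The comparison of AB-Tie1-39-treated with IgG-treated mice asks whether the antibody altered this response in lung EC. Log2 intensities were compared per probe set with limma, and adjusted p-values are by Benjamini and Hochberg over all 22204 probe sets tested. No member was called at an adjusted p under 0.05, and the smallest adjusted p over the 44 was 0.873. Over all probe sets 0% were called, with a smallest adjusted p of 0.344. The mean was higher in AB-Tie1-39-treated mice for 19 members and lower for 25, so that 56.8% of members were lower, against 51.8% of all probe sets. The median log2 difference was -0.02 over members and 0.00 over all probe sets, and the median size of the difference regardless of sign was 0.08 over members and 0.07 over all. The 95% interval of 41 members lay within a 1.5-fold change in either direction and that of 28 within a 1.25-fold change. Those of Ddx58, Mx2 and Ifit2 reached past 1.5-fold. In these bulk RNA samples, fewer cells of a type and less RNA per cell cannot be told apart.

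At an unadjusted p under 0.05, 1 member was higher, against 2.17% of all probe sets, and 2 were lower, against 3.15% of all probe sets. The groups did not overlap for 1 higher member, Parp14, against 1.38% of all probe sets, and for 1 lower member, Bst2, against 1.78%. These counts are about what those shares give for 44 genes. Averaged over the 44 members, the log2 intensity was 8.87, 8.82, 8.95 and 8.88 on AB-Tie1-39 arrays 1 to 4, against 8.93, 8.98, 8.87 and 8.84 on IgG arrays 1 to 4. The means were 8.88 ± 0.05 and 8.90 ± 0.06 (SD, n = 4 each), and the groups overlapped.

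**Figure D2:**
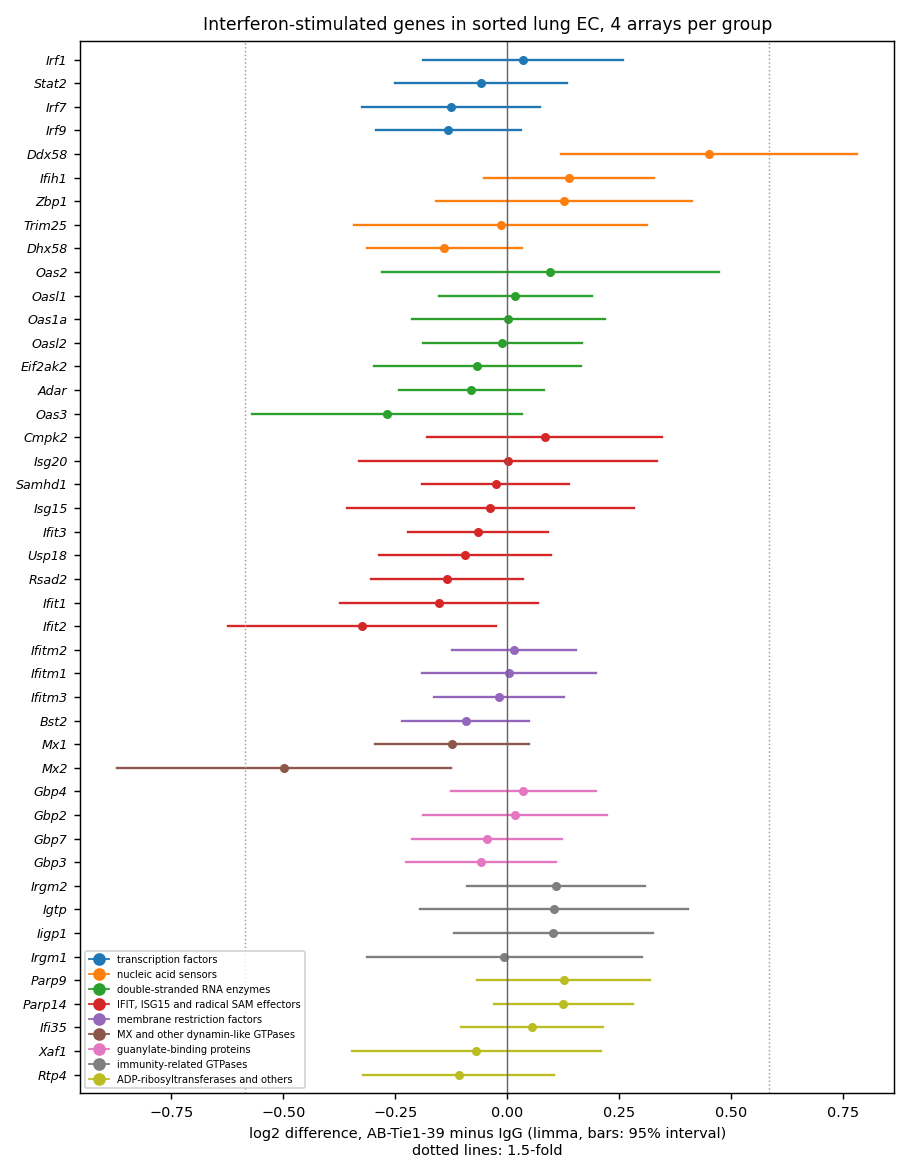
Log2 difference of each of 44 members, AB-Tie1-39 minus IgG, with its 95% interval from limma, ordered by role, with 4 arrays per group. Points lie on both sides of 0 in most role groups, and the intervals of Ddx58, Mx2 and Ifit2 alone exclude 0 and cross a dotted 1.5-fold line.

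Among the transcription factors, Irf9, the DNA-binding subunit of the type I complex, had the smallest p. Its values were 9.35, 9.57, 9.37 and 9.46 on AB-Tie1-39 arrays, against 9.63, 9.56, 9.55 and 9.54 on IgG arrays. The groups overlapped through AB-Tie1-39 array 2, and the log2 difference was -0.13 (standard error, SE, 0.07; limma adjusted p = 0.955). Stat2, its partner in the complex, was at 10.14, 9.89, 9.90 and 10.16 on AB-Tie1-39 arrays and at 10.11, 10.05, 10.16 and 10.01 on IgG arrays. The IgG values lay inside the span of the AB-Tie1-39 values. Irf7, which amplifies type I interferon production, was at 8.85, 8.66, 8.75 and 8.65 in AB-Tie1-39-treated mice, against 8.81, 9.07, 8.77 and 8.75 in IgG-treated mice. IgG array 2 stood apart above the other 7 arrays, and the log2 difference was -0.13 (95% interval -0.32 to 0.07). Irf1, an early target of interferon gamma whose GAS core is printed above, differed by 0.03 (95% interval -0.19 to 0.26). Of the 4 factors 1 had a higher and 3 a lower mean, and none reached an unadjusted p under 0.05.

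The sensors of foreign nucleic acid included the member with the smallest p of all. Ddx58, which encodes RIG-I, a helicase that detects RNA with a triphosphate end, was at 9.67, 9.77, 9.82 and 9.69 on AB-Tie1-39 arrays. On IgG arrays it was at 9.20, 9.77, 9.24 and 8.93. The AB-Tie1-39 values were tight, 3 IgG arrays lay below all of them, and IgG array 2 lay among them. The log2 difference was 0.45 (SE 0.15; 95% interval 0.12 to 0.78), with an unadjusted p of 0.0123 and a limma adjusted p of 0.873. It was 0.61 without IgG array 2 (adjusted p = 0.419) and 0.33 without IgG array 4 (adjusted p = 0.835).

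The related helicases did not share a sign. Ifih1 (MDA5), which detects long double-stranded RNA, differed by 0.14 (95% interval -0.05 to 0.33), and Dhx58 (LGP2), which lacks the signaling domains of both, by -0.14 (-0.31 to 0.03). Zbp1, a sensor of Z-form nucleic acid that can start necroptosis, differed by 0.13, and Trim25, a ubiquitin ligase acting on RIG-I, by -0.01. Zbp1 was at 7.94 on AB-Tie1-39 array 3 and between 7.29 and 7.43 on the other 7. Trim25 was at 9.35 on AB-Tie1-39 array 1 and between 9.65 and 9.99 on the other 7. The sensors' median log2 difference was 0.13, with 3 of 5 higher in AB-Tie1-39-treated mice. Of the 5, Ddx58 alone was higher at an unadjusted limma p under 0.05, against 2.17% of all probe sets.

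None of the 7 enzymes that act on double-stranded RNA or are activated by it reached an unadjusted p under 0.05. The oligoadenylate synthetases make the second messenger that activates RNase L, and of these Oas3 had the smallest p. It was at 6.26, 6.03, 6.34 and 6.24 on AB-Tie1-39 arrays, against 6.90, 6.29, 6.28 and 6.47 on IgG arrays. IgG array 1 was the highest, the groups overlapped, and the log2 difference was -0.27 (95% interval -0.57 to 0.03; limma adjusted p = 0.951). Oas3 and Oasl1 lay on every array below 7.87, the level of the brightest of 23 background control probe sets, so their differences are poorly measured. Oas1a differed by 0.00 and Oas2 by 0.10, with Oas2 at 8.57 on AB-Tie1-39 array 3 and at 7.70 on AB-Tie1-39 array 1. Oasl1 and Oasl2, related proteins, differed by 0.02 and -0.01. Eif2ak2 (PKR), a kinase that halts translation, differed by -0.07, and Adar, which edits adenosine to inosine in double-stranded RNA, by -0.08. Of the 7 enzymes 3 had a higher and 4 a lower mean.

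In the group around the IFIT proteins and Isg15, 7 of 9 members had a lower mean in AB-Tie1-39-treated mice, against 51.8% of all probe sets. The median log2 difference of the group was -0.07. IFIT proteins bind viral RNA and limit its translation. Ifit2 was at 6.95, 7.17, 7.51 and 7.42 on AB-Tie1-39 arrays, against 7.55, 7.78, 7.67 and 7.34 on IgG arrays. IgG array 4 lay below 2 of the AB-Tie1-39 arrays and the other 3 IgG arrays above all 4. The log2 difference was -0.32 (SE 0.13; 95% interval -0.62 to -0.03), with an unadjusted p of 0.0362 and a limma adjusted p of 0.93. All 8 values were under the level of the brightest background control, and the unadjusted p was between 0.055 and 0.107 when any 1 of AB-Tie1-39 arrays 1 and 2 and IgG arrays 1, 2 and 3 was left out.

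Ifit1 was at 8.36, 8.27, 8.49 and 8.26 on AB-Tie1-39 arrays, against 8.28, 8.72, 8.49 and 8.48 on IgG arrays. The groups overlapped, and the log2 difference was -0.15 (95% interval -0.37 to 0.07). Ifit3, a binding partner of Ifit1, was at 7.72, 7.69, 7.88 and 7.70 on AB-Tie1-39 arrays and at 7.77, 7.80, 7.87 and 7.82 on IgG arrays. AB-Tie1-39 array 3 was the highest of all 8 and the other 3 AB-Tie1-39 arrays the lowest. Isg15, a ubiquitin-like protein that is attached to other proteins, was at 7.56, 7.89, 7.73 and 7.88 on AB-Tie1-39 arrays, against 8.09, 7.48, 8.03 and 7.60 on IgG arrays. Its IgG values fell into a high pair (arrays 1 and 3) and a low pair, the AB-Tie1-39 values lay within their span, and the log2 difference was -0.04 (95% interval -0.36 to 0.28). Limma adjusted p-values of Ifit1, Ifit3 and Isg15 were 0.965, 0.977 and 0.996, and none of these textbook members, all with ISRE cores printed above, differed beyond the spread between arrays. Ifit3 and Isg15 each had a mean of 7.78 over the 8 arrays. That is below the brightest background control at 7.87, so their differences are less well measured than that of Ifit1.

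The rest of this group were effectors and a feedback gene. Usp18, which removes Isg15 and blocks signaling at Ifnar2, differed by -0.10 (95% interval -0.29 to 0.10). Rsad2 (viperin), a radical SAM enzyme that makes a chain-terminating nucleotide, differed by -0.13 (-0.30 to 0.04), and Cmpk2, a nucleotide kinase encoded next to it, by 0.08 (-0.18 to 0.35). Isg20, an exonuclease, differed by 0.00, and Samhd1, which depletes deoxynucleotides, by -0.03.

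Of the membrane restriction factors, Bst2 (tetherin), which holds budding virus at the cell surface, was at 11.38, 11.33, 11.43 and 11.40 on AB-Tie1-39 arrays. On IgG arrays it was at 11.49, 11.53, 11.44 and 11.44, so every AB-Tie1-39 value lay below every IgG value. The gap between the nearest arrays was narrow, and the log2 difference was -0.09 (SE 0.06; 95% interval -0.23 to 0.05; limma adjusted p = 0.965). Ifitm1, Ifitm2 and Ifitm3, which hinder the fusion of viral with cell membranes, differed by 0.00, 0.02 and -0.02. Ifitm2 had the smallest range over the 8 arrays of any member, at 0.107 log2 units.

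The MX proteins are dynamin-like GTPases that trap viral components. Mx2 was at 8.36, 7.85, 8.39 and 7.81 on AB-Tie1-39 arrays, against 8.53, 8.80, 8.81 and 8.26 on IgG arrays. Its range of 1.01 log2 units was the widest of any member. In AB-Tie1-39-treated mice arrays 1 and 3 lay well above arrays 2 and 4, and IgG array 4 lay below AB-Tie1-39 arrays 1 and 3, so the groups overlapped. The log2 difference was -0.50 (SE 0.17; 95% interval -0.87 to -0.13), with an unadjusted p of 0.0137 and a limma adjusted p of 0.873. Mx1, which carries a deletion in the common laboratory strain C57BL/6, lay below the brightest background control on every array and differed by -0.12 (95% interval -0.30 to 0.05).

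**Figure D3:**
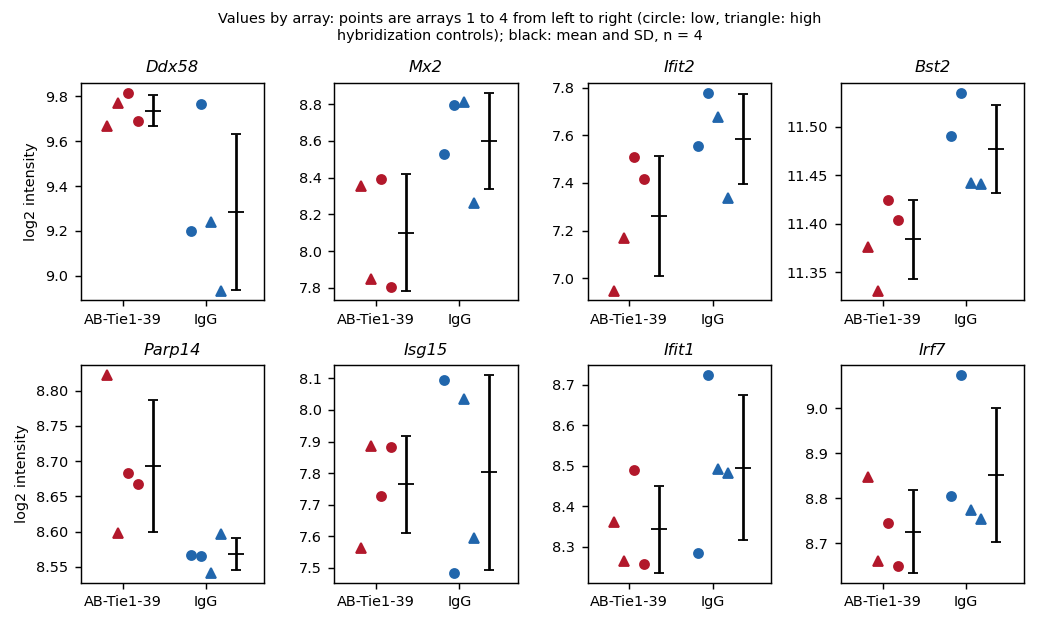
Log2 intensity of 8 members on each array, AB-Tie1-39 left and IgG right, with mean and SD (n = 4) in black, and with circles for arrays of low and triangles for arrays of high hybridization controls. Each panel has its own axis, which does not start at 0. The groups overlap in every panel except Bst2 and Parp14, where the nearest arrays of the groups almost touch.

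Guanylate-binding proteins and immunity-related GTPases assemble on the vacuoles of intracellular pathogens and are strongly induced by interferon gamma. Gbp3, with the smallest p of its family, was at 9.20, 9.12, 9.24 and 9.19 on AB-Tie1-39 arrays, against 9.33, 9.35, 9.19 and 9.12 on IgG arrays. AB-Tie1-39 values lay inside the span of the IgG values, and the log2 difference was -0.06 (95% interval -0.23 to 0.11; limma adjusted p = 0.983). Gbp2, Gbp4 and Gbp7 differed by 0.02, 0.04 and -0.05, and the 4 intervals together reached no further than -0.23 and 0.22.

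Irgm2 had the smallest p among the immunity-related GTPases. It was at 9.57, 9.36, 9.53 and 9.66 on AB-Tie1-39 arrays, against 9.31, 9.50, 9.32 and 9.55 on IgG arrays. The values of both groups ran through each other, and the log2 difference was 0.11 (95% interval -0.09 to 0.31; limma adjusted p = 0.966). Igtp, whose promoter stretch is nearly that of Irgm2, differed by 0.10 (-0.20 to 0.40) and was highest, at 9.19, on AB-Tie1-39 array 4, as was Irgm2. Iigp1, an effector of the family, differed by 0.10 and Irgm1, a regulator that keeps the effectors inactive on the cell's own membranes, by -0.01. Members of both GTPase families are close in sequence, and whether their probe sets share targets was not tested.

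Of the remaining members, Parp14, an ADP-ribosyltransferase, was at 8.82, 8.598, 8.68 and 8.67 on AB-Tie1-39 arrays, against 8.57, 8.56, 8.54 and 8.597 on IgG arrays. The groups did not overlap, but AB-Tie1-39 array 2 and IgG array 4 differed only in the third decimal. The log2 difference was 0.13 (SE 0.07; 95% interval -0.03 to 0.28; limma adjusted p = 0.955). Parp9, which acts with the ubiquitin ligase Dtx3l, also differed by 0.13 (-0.07 to 0.32). Ifi35 differed by 0.06, Xaf1, which promotes apoptosis, by -0.07, and Rtp4, a chaperone of receptors, by -0.11. An exact two-sided Mann-Whitney test, whose smallest possible p for 4 against 4 arrays is 0.0286, put Parp14 and Bst2 at that value.

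Members whose promoter held an ISRE core (19 measured) had a median log2 difference of -0.04, with 7 higher and 12 lower, and those without one (14 measured) had -0.01, with 6 higher and 8 lower. For the GAS core the medians were -0.02 with it and -0.03 without it. The median difference thus varied little with either core.

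How the members varied together between arrays was described after the mean of its own group was taken from every value. Over the 946 pairs of members the median correlation across the 8 arrays was 0.166, against 0.004 over all pairs of named genes, and 63.8% of the member pairs were above 0. The pairs share arrays and normalization. Members and all named genes were not matched for level, and 38 of the 44 members lay at or above the median level of all probe sets. The higher median can therefore not be read as a trait of these genes. Members above their own group's mean numbered 24, 14, 29 and 24 of 44 on AB-Tie1-39 arrays 1 to 4, and 24, 32, 14 and 12 on IgG arrays 1 to 4. So AB-Tie1-39 array 3 and IgG array 2 were high in most members, and AB-Tie1-39 array 2 and IgG arrays 3 and 4 low.

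The first principal component of the centred members held 33.1% of their variance. That of all named genes held 23.3%, but such a share is larger for a short list, so these shares cannot be compared. The members' component was highest on IgG array 2 (0.58) and AB-Tie1-39 array 3 (0.56) and lowest on IgG array 4 (-0.44). With it ran 34 members, and against it 10. Usp18 (r = 0.964), Isg20 (0.954), Bst2 (0.873), Cmpk2 (0.832), Oas2 (0.828) and Ifit2 (0.822) followed it most closely. Irf1 (-0.764) and Ifitm1 (-0.738) ran against it.

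The hybridization controls, 18 probe sets for RNA added by the laboratory, moved with this pattern. They averaged 10.88, 10.79, 10.41 and 10.51 (log2 intensity) on AB-Tie1-39 arrays 1 to 4, and 10.44, 10.40, 11.04 and 11.05 on IgG arrays 1 to 4. The 4 low arrays, split evenly between treatments, include AB-Tie1-39 array 3 and IgG array 2. On the other low arrays the component was near 0 (-0.04 on AB-Tie1-39 array 4 and 0.01 on IgG array 1), and on all 4 high arrays it was below 0, at -0.15 to -0.44. With low and high controls fitted as a block, the median correlation of the members was 0.0599. It was not computed over all named genes with that block. Their part in the pattern was not tested further.

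The role groups differed in this respect. Within the IFIT and Isg15 group the median correlation was 0.463, and 0.424 with the controls as a block. Isg15 itself was the exception in this group. It alone there ran against the first component (r = -0.199), and it was low on IgG array 2, where most members were high. Among the immunity-related GTPases the median correlation was 0.522, and 0.651 with the block, over only 6 pairs. Among the guanylate-binding proteins it was 0.495, but -0.223 with the block, and among the double-stranded RNA enzymes 0.163, but -0.0872 with the block. For the sensors it was 0.394, and 0.215 with the block. The transcription factors did not vary together, at -0.122, and -0.0867 with the block. These are descriptions over 8 arrays, with 6 to 36 pairs in a role group, and no difference between groups was tested.

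**Figure D4:**
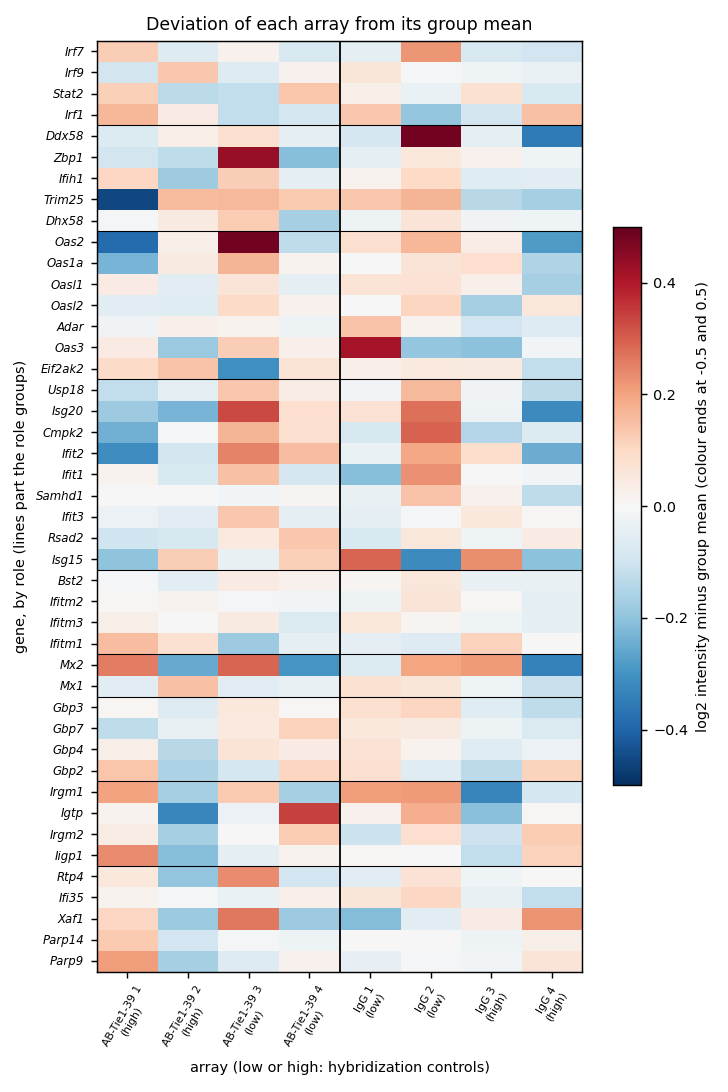
Log2 intensity of each member on each array minus the mean of its group, AB-Tie1-39 arrays left and IgG arrays right, with members grouped by role. AB-Tie1-39 array 3 and IgG array 2 are red in most rows (29 and 32 of 44 members above the group mean), and IgG array 4 is blue in most (12 of 44 above).

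The 8 genes outside the list whose centred values followed the members' mean most closely over the 8 arrays, of 9936 compared, were Ywhae (r = 0.985), Sumo3, Naa15, Cklf, Lrrc29, Cpd, Sdf4 and Ppa2 (0.947). None of them was in the interferon lists used here. They were found by search over many genes and are given by name only.

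The rest of the pathway was read from lists of genes that are not members. Of 19 ligand probe sets, 5 lay at or above the median level of all probe sets. At an unadjusted p under 0.05, 3 ligands were higher (Ifnab by 0.37, Ifnk by 0.25 and Ifnl2 by 0.21 on the log2 scale) and 2 differed downward, Ifnb1 by -0.30 and Ifnz by -0.27. Over all probe sets the shares at that p were 2.17% higher and 3.15% lower. Of these 5 ligands only Ifnl2, a type III interferon, had a mean above the brightest background control. Ifnb1, the type I ligand made early in infection, was at 6.86, 6.78, 6.80 and 6.75 on AB-Tie1-39 arrays, against 7.34, 6.81, 7.20 and 7.05 on IgG arrays, all under that control.

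None of the 6 receptors reached an unadjusted p under 0.05. Ifnar1 differed by -0.04 (95% interval -0.46 to 0.39), Ifnar2 by 0.10 (-0.22 to 0.42), Ifngr1 by -0.07 (-0.22 to 0.08) and Ifngr2 by -0.10 (-0.29 to 0.09). Ifnar1 was highest on AB-Tie1-39 array 3 (8.96) and IgG array 2 (9.11), the arrays on which most members were high. Ifnar2 did not share this pattern. It was highest on IgG array 4 (11.47) and lowest on IgG array 3 (10.76), and most members were low on both. A link between receptor level and the members was not tested. Of 7 transducers measured, Tyk2, the kinase bound to Ifnar1, was at 8.98, 8.88, 9.07 and 9.18 on AB-Tie1-39 arrays, against 8.85, 8.82, 8.84 and 8.69 on IgG arrays. The groups did not overlap, as for 1.38% of all probe sets in this direction, and the log2 difference was 0.23 (SE 0.08; unadjusted p = 0.0189; limma adjusted p = 0.896).

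Of 13 negative regulators 11 had a higher and 2 a lower mean in AB-Tie1-39-treated mice, while 51.8% of all probe sets were lower. Their log2 differences ran from -0.17 to 0.16 with a median of 0.07, and none was at an unadjusted limma p under 0.05. The list averaged 8.56 to 8.65 on AB-Tie1-39 arrays and 8.49 to 8.60 on IgG arrays, so the groups overlapped. Of 13 sensors and adaptors measured, none reached it. Among 61 further interferon-stimulated genes, 2 were higher and 2 lower at that unadjusted p, against 2.17% and 3.15% of all probe sets. Apol9b and Lap3, an aminopeptidase, differed by 0.24 and 0.23 (limma unadjusted p = 0.0273 and 0.0296), and Slfn9 and Ifi204, a DNA sensor, by -0.37 and -0.21 (0.0128 and 0.0328). The median log2 difference of those 61 was 0.00, with 30 higher and 31 lower. None of the pathway genes was called after adjustment.

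Leukocytes carry an interferon response of their own. None of 5 pan-leukocyte markers had a mean over the 8 arrays above the brightest background control, although Laptm5 and Ptprc passed it on single arrays, and the list averaged 7.07 to 7.34 on AB-Tie1-39 arrays, against 7.18 to 7.35 on IgG arrays. Of these 5 markers 3 had a higher and 2 a lower mean in AB-Tie1-39-treated mice, and Laptm5 differed by -0.24 (unadjusted p = 0.0515, limma). The 8 T and NK cell markers averaged 6.65 to 6.81 on AB-Tie1-39 arrays and 6.76 to 6.85 on IgG arrays. Cd4 alone had a mean above the brightest background control. Of these 8, 2 had a higher and 6 a lower mean, from Cd3e at -0.29 (unadjusted p = 0.0233, limma) to Ncr1 at 0.19. The 3 B cell markers averaged 7.13 to 7.39 against 7.19 to 7.35, with none above that control. The 9 macrophage, monocyte and neutrophil markers averaged 7.40 to 7.42 on AB-Tie1-39 arrays, against 7.30 to 7.38 on IgG arrays, with no overlap. Of these 9, only Ly6c2, at 11.26, had a mean above that control, so the difference of this list is poorly measured. S100a9, which was below the control, differed by 0.28 (unadjusted p = 0.0444, limma). The 5 plasmacytoid dendritic cell markers averaged 8.21 to 8.30 against 8.17 to 8.29. Tcf4, at 12.40, and Cox6a2, at 8.50, had means above the control, and Siglech (6.75), Ccr9 (6.39) and Klk1 (7.20) did not. Tcf4 was as bright as the endothelial markers, whose values ran from 9.98 to 12.98, and it raises the mean of this list. The list's level is therefore no measure of plasmacytoid dendritic cells. Other lists differed more between treatments. The 5 alveolar type 2 markers averaged 9.36 to 9.96 on AB-Tie1-39 arrays and 8.92 to 9.59 on IgG arrays, the 6 lymphatic markers 9.27 to 9.39 against 9.37 to 9.81, and the 5 platelet markers 8.56 to 8.73 against 8.59 to 9.11. Their part in the values of the members was not tested.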

How the data were processed

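RNA of sorted lung EC from 4 AB-Tie1-39-treated and 4 IgG-treated mice was measured on Clariom S arrays. The values deposited by the authors are linear intensities that had been normalized between arrays. The study's methods name the Ingenuity Pathway Analysis software for normalization and analysis, with the algorithm not given in the sources used here. Array medians were 183.8 to 189.6. Arrays have no read depth, and their number limits the precision. Samples were grouped by their titles, and 0 columns of other samples were found. Gene symbols came from the platform annotation and promoters from RefSeq (GRCm38.p6).

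Intensities were put on the log2 scale and fitted with limma 3.58.1 in R 4.3.3 (lmFit, eBayes without trend), with the contrast AB-Tie1-39 minus IgG, and p-values were adjusted by Benjamini-Hochberg over 22204 probe sets, array controls left out. A limma fit of the same form was tried on simulated arrays with known fold changes and independent noise. The other steps were not tested in this way. The members and all gene lists were chosen with earlier results of these data known, so no list was tested as a whole. Values per array are printed for the member with the smallest p of each role group, for members at an unadjusted p under 0.05 or without overlap, for Stat2, Irf7, Irf9, Isg15, Ifit1 and Ifit3, and for the member with the widest range. Of pathway genes outside the list, those at an unadjusted p under 0.05 and the Ifnar and Ifngr genes are named. Values on single arrays of Zbp1, Trim25, Oas2, Igtp, Ifnar1 and Ifnar2 were added after they had been seen. Alternatives covered quantile normalization, median centring, array weights, the variance model, bright probe sets alone, blocks for the replicate number and for the hybridization controls, values within low and high controls, each array left out and the exact Mann-Whitney test.

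The replicate numbers do not pair the arrays: deviations of same-numbered arrays from their group means correlated between -0.05 and 0.00658.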

Additional observations from a re-analysis of the deposited data

Results flagged for a closer look

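In 7 of the 88 sets of 4 arrays (44 members in 2 groups), 1 array stood so far from the other 3 that the gap to its nearest neighbour, as a share of the group's range, passed Dixon's 95% limit. Chance flags about 1 in 20 such sets. Trim25 was at 9.35 on AB-Tie1-39 array 1, against 9.94 to 9.97 on the other 3 (share 0.948). Mx1 was at 6.58 on AB-Tie1-39 array 2, against 6.38 to 6.39 (0.917), with all arrays under the brightest background control. On AB-Tie1-39 array 3, Ifit3 was high at 7.88, against 7.69 to 7.72 (0.871), and Eif2ak2 low at 8.22, against 8.60 to 8.67 (0.835). Eif2ak2 was also low on IgG array 4, at 8.47 against 8.62 to 8.64 (0.868). On IgG array 2, Dhx58 was at 8.28, against 8.188 to 8.193 (0.945), and Irf7 at 9.07, against 8.75 to 8.81 (0.84).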

How the results depend on the processing

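No member was called at an adjusted p under 0.05 under any alternative run. For the exact Mann-Whitney test this does not count as agreement. Its smallest possible p, 0.0286, passes adjustment only if most probe sets reach it, and 307 higher and 396 lower did. The count of members lower at an unadjusted p under 0.05 was 1 in place of 2 under quantile normalization, the filter on dim probe sets (which left out Ifit2), the exact Mann-Whitney test and within the arrays of high hybridization controls, and that of members higher was 0 in place of 1 within low controls. The fit with trend and robust gave 3 lower, with Bst2 added. With 1 array left out, members lower numbered 1 to 3 and members higher 1 to 2, while 0 to 18 probe sets were called (18 without IgG array 4, and 1 each without AB-Tie1-39 array 4 or IgG array 1). With the replicate number as a block, 0 probe sets were called, 1 member was higher and 2 were lower, so the block changed no call. The median correlation of the members was 0.0599 with the hybridization controls as a block, 0.234 with median centring, and 0.123 to 0.24 with 1 array left out. The median difference of the members (-0.0163) was -0.0559 without IgG array 4, -0.0469 without AB-Tie1-39 array 3, -0.0298 without IgG array 3, -0.0266 without AB-Tie1-39 array 1 and -0.00549 without IgG array 1. It was -0.03 within low and 0.01 within high controls, and 28 of 44 members had the same sign in both.

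Single members' differences moved by less than 1 SD in all 302 refits with 8 arrays and all 352 with 1 array left out. Leaving out 1 array cannot move a difference by 1 SD, whatever the values, so those 352 refits do not test stability. With 8 arrays, the blocks, the fit with trend and robust and the filter on dim probe sets leave each difference unchanged by design. Only array weights, quantile normalization and median centring could change it there. Differences moved by more than 1 SD in 10 of 88 refits within low or high controls, where a group has 2 arrays. Mx2 and Ddx58 kept an unadjusted p under 0.05 in every limma fit with 8 arrays or 1 left out, but Mx2 was at 0.127 within high controls, Ddx58 at 0.226 within low controls, and both at 0.114 by Mann-Whitney. Ifit2 was at 0.0529 under quantile normalization. The mean over several probe sets was not run, since every member had 1. Signal limits the result for 9 members, which averaged below the brightest background control: Ifit2, Ifit3, Isg15, Rsad2, Oas3, Oasl1, Mx1, Parp9 and Zbp1. The causes were not tested.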
